A study of Homo sapiens with 42 samples.

Results

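The genes described here encode the neddylation enzymes and the core of the cullin-RING ubiquitin ligases. They were chosen as a fixed list of 39 genes, each read by the brightest, on average over all arrays, of the probe sets annotated with that 1 gene symbol. Of these, 38 were measured, out of 19775 genes on the arrays, and UBE2M was not analysed here. NEDD8 is a small ubiquitin-like protein that is activated by the NAE1 and UBA3 enzyme, passed to the conjugating enzymes UBE2M or UBE2F, and attached to cullins with the help of a RING subunit and a DCN1-like protein. Attachment switches the cullin-RING ligase on, the COP9 signalosome removes NEDD8 again, and CAND proteins then exchange the substrate receptors. MLN4924 blocks the NAE1 and UBA3 enzyme, and cells exposed to it accumulate ligase substrates such as CDT1 and the antioxidant regulator NRF2.

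The RNA of A375, an established line of human melanoma, was hybridised to 42 Affymetrix arrays, 3 for each of 14 groups. Cultures of 27000 cells first had 48 hours of siRNA, directed at p53, at CDT1, at BRCA1 or, as the control named GL2, at a luciferase that human cells lack. They then received a drug or its vehicle for 26 hours. GL2 siRNA and p53 siRNA were each combined with 0.065% DMSO in a first and a second set of arrays, 650 nM MLN4924, 5 uM Nutlin and 100 nM daunorubicin. CDT1 siRNA and BRCA1 siRNA were each combined with DMSO and with MLN4924. Nutlin stabilises p53 by occupying its site on MDM2, and daunorubicin damages DNA through topoisomerase II. All groups come from 1 cell line. The labels do not call the replicates separate cultures, and the p-values therefore measure the spread of these samples alone, which may be technical. In bulk RNA, fewer cells carrying a transcript and less transcript per cell cannot be told apart.

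Levels below are log2 signals with the median gene of every array brought to 1 value, and changes are log2 differences with the standard error of a limma fit. A change was called where its Benjamini-Hochberg adjusted p was below 0.05 and its size at least 1.5-fold, which is 0.58 on the log2 scale. As checks of the labels under DMSO, CDT1 siRNA lowered CDT1 (-2.17 ± 0.26), BRCA1 siRNA lowered BRCA1 (-2.89 ± 0.51) and p53 siRNA lowered CDKN1A, a p53 target (limma adjusted p = 1.59e-13). CDKN1A still rose in p53 siRNA cells with Nutlin (1.87 ± 0.17) and with daunorubicin (2.74 ± 0.17). Under DMSO it was higher with CDT1 siRNA (1.41 ± 0.15) and BRCA1 siRNA (1.86 ± 0.15) than with GL2 siRNA. BRCA1 was at 4.70 in the library labelled GL2 MLN4924 3 against 7.95 and 8.24 in the others of that group, and at 8.18 in the library labelled BRCA1 MLN4924 3 against 4.93 and 5.28. The library labelled p53 Daunorubicin 1 had a 5' to 3' signal ratio of 0.0118 for ACTB, against 0.649 to 0.945 on the other 41 arrays. These 3 libraries were kept, and part of the results that use them are also given without them. Of the melanocyte markers SOX10 ranged from 7.05 to 10.99 and MITF from 7.31 to 9.28, PMEL did not exceed 5.26, and MLANA did not exceed 5.07. None of 3 measured leukocyte markers had a median above the median of all signals, against 2 of 5 epithelial, 3 of 5 fibroblast and 4 of 6 melanocyte markers.

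For MLN4924 the controls were both DMSO sets in GL2 and p53 siRNA cells and the group's own DMSO arrays in CDT1 and BRCA1 siRNA cells. Neither subunit of its target enzyme was called changed at the RNA level under any of the 4 siRNAs. NAE1 passed the adjusted threshold with p53 and BRCA1 siRNA but stayed under the fold limit. In contrast, KEAP1 and DCUN1D2 rose. Both were called higher in GL2, p53 and BRCA1 siRNA cells, DCUN1D2 also in CDT1 siRNA cells. Nutlin and daunorubicin gave a different picture in GL2 siRNA cells, where SKP2, DCUN1D2, DCUN1D4, NAE1, CUL3, CUL1, COPS3 and CAND1 fell with both. With p53 siRNA, Nutlin gave 0 called changes among the 38 genes by limma, with 13 at an unadjusted p under 0.05. The heat map of changes shows each gene in each comparison.

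**Figure D1:**
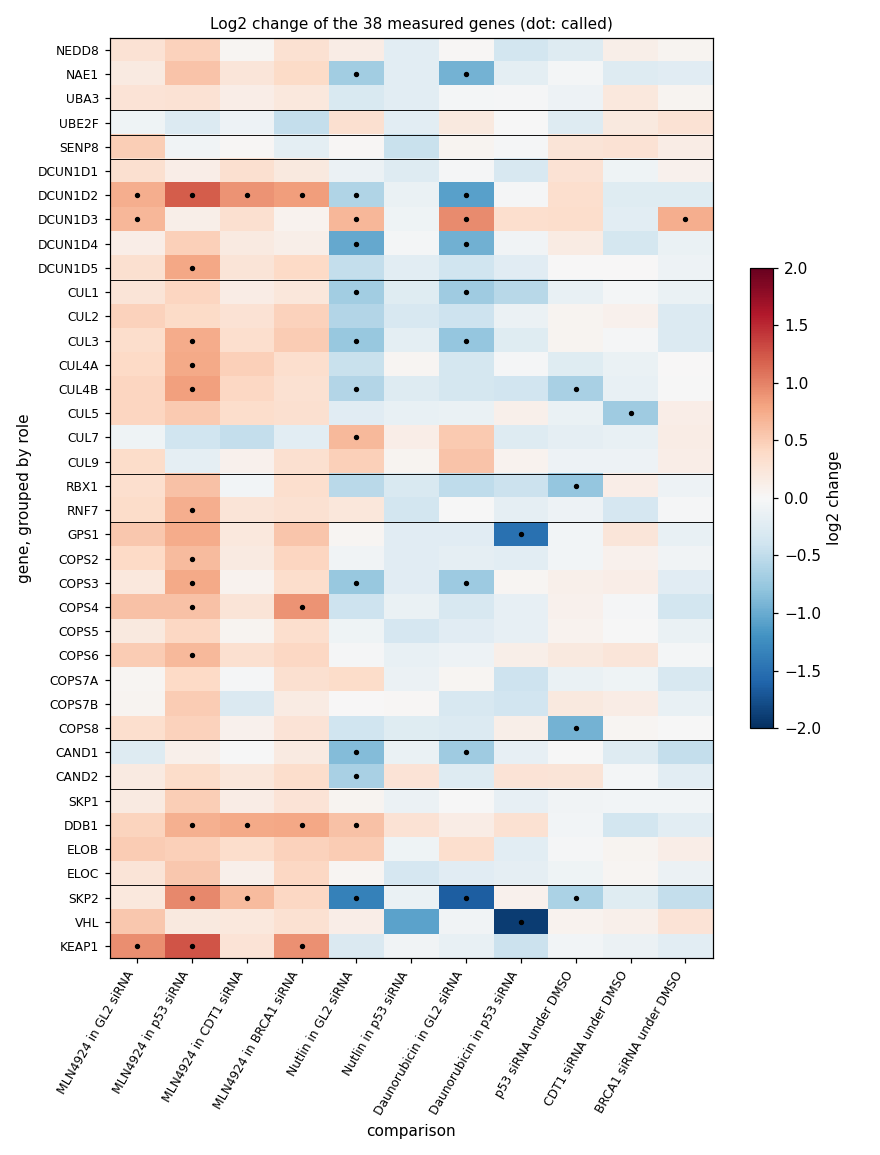
Log2 change (colour, from -2 to 2) of the 38 measured genes (rows, grouped by role, lines between roles) in 11 comparisons (columns), with a dot where a change was called. DCUN1D2 is red with a dot in all 4 MLN4924 columns and KEAP1 in all but that of CDT1 siRNA, SKP2 and DCUN1D4 are blue with a dot for Nutlin and daunorubicin in GL2 siRNA cells, and the column for Nutlin in p53 siRNA cells holds 0 dots.

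Among the direct targets, NEDD8 had 11.67, 11.66 and 11.48 on the 3 GL2 MLN4924 arrays. The 6 GL2 DMSO arrays ran from 11.15 to 11.46 with a median of 11.32, so that the groups did not overlap. The difference was 0.29 ± 0.08 (SE; limma adjusted p = 0.00423), below the 1.5-fold limit. NEDD8 was higher in the second than in the first GL2 DMSO set by 0.20 ± 0.09 (limma adjusted p = 0.318). With MLN4924 in GL2 siRNA cells the median change of the 38 genes also moved with the scaling. It was 0.34 with centring, 0.16 without it and 0.14 after quantile normalization. In p53 siRNA cells NEDD8 was at 11.49, 11.47 and 11.57 with MLN4924 and between 10.88 and 11.19 with DMSO, a difference of 0.46 ± 0.08 (limma adjusted p = 1.42e-05). This value depended on the scaling, at 0.04 without centring and -0.06 after quantile normalization. CDT1 siRNA gave 0.05 ± 0.09 and BRCA1 siRNA 0.31 ± 0.09 on the centred scale.

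NAE1, the regulatory subunit of the enzyme, had 11.74, 11.71 and 11.54 with MLN4924 in GL2 siRNA cells. Its DMSO arrays ran from 11.36 to 11.59. The doubted replicate 3 lay among them, and the other drug arrays lay above all of them. With that replicate included the change was 0.19 ± 0.10, with a 95% interval from -0.03 to 0.40 (limma adjusted p = 0.197). With p53 siRNA NAE1 was at 12.02, 11.97 and 12.07 against 11.35 to 11.55, a change of 0.58 ± 0.10 that just missed the 1.5-fold limit and came to 0.16 without centring. NAE1 changed by 0.24 with CDT1 siRNA and by 0.38 with BRCA1 siRNA. The BRCA1 siRNA change passed the adjusted threshold and stayed under the fold limit. UBA3, the catalytic subunit, differed by 0.28 ± 0.13 (95% interval 0.02 to 0.54) in GL2 siRNA cells, where the drug arrays read 11.15, 11.03 and 11.27 and DMSO arrays reached 11.03. Its changes under the other siRNAs lay between 0.14 and 0.29, none past the adjusted threshold, and that with p53 siRNA turned to -0.13 without centring. Both values depended on the control arrays. Against the first DMSO set alone UBA3 was at 0.41 in GL2 siRNA cells, and NAE1 was called with p53 siRNA, at 0.63. The second set was higher than the first by 0.26 ± 0.15 for UBA3 with GL2 siRNA. For NAE1 with p53 siRNA it was higher by 0.11 ± 0.12. Both changes were therefore smaller against the second set than against the first.

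UBE2F, the conjugating enzyme that serves CUL5, was the 1 gene among NEDD8 and its enzymes with differences below 0 under all 4 siRNAs at each of the 3 scalings. On the centred scale they were small in GL2 and CDT1 siRNA cells, at -0.08 and -0.10, and did not pass the adjusted threshold. In BRCA1 siRNA cells it had 8.39, 8.47 and 8.50 with MLN4924 and 8.83, 9.13 and 8.84 with DMSO. The groups lay apart, with a difference of -0.48 ± 0.14 (limma adjusted p = 0.00979) on the centred scale, short of the fold limit. Of its 3 other probe sets at least 1 had the opposite sign under each siRNA, up to 0.51 in GL2 siRNA cells and 0.20 in BRCA1 siRNA cells. With its brightest probe set it was called lower there without centring, at -0.66, and after quantile normalization, at -0.59. The drug arrays with p53 siRNA read 8.01, 8.16 and 8.17 against 8.25 to 8.59, a difference of -0.27 ± 0.12 that came to -0.69 without centring and was then called. SENP8, which matures NEDD8 and removes it from other proteins, was at 0.49 ± 0.17 with MLN4924 in GL2 siRNA cells and between -0.20 and 0.03 under the other siRNAs.

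**Figure D2:**
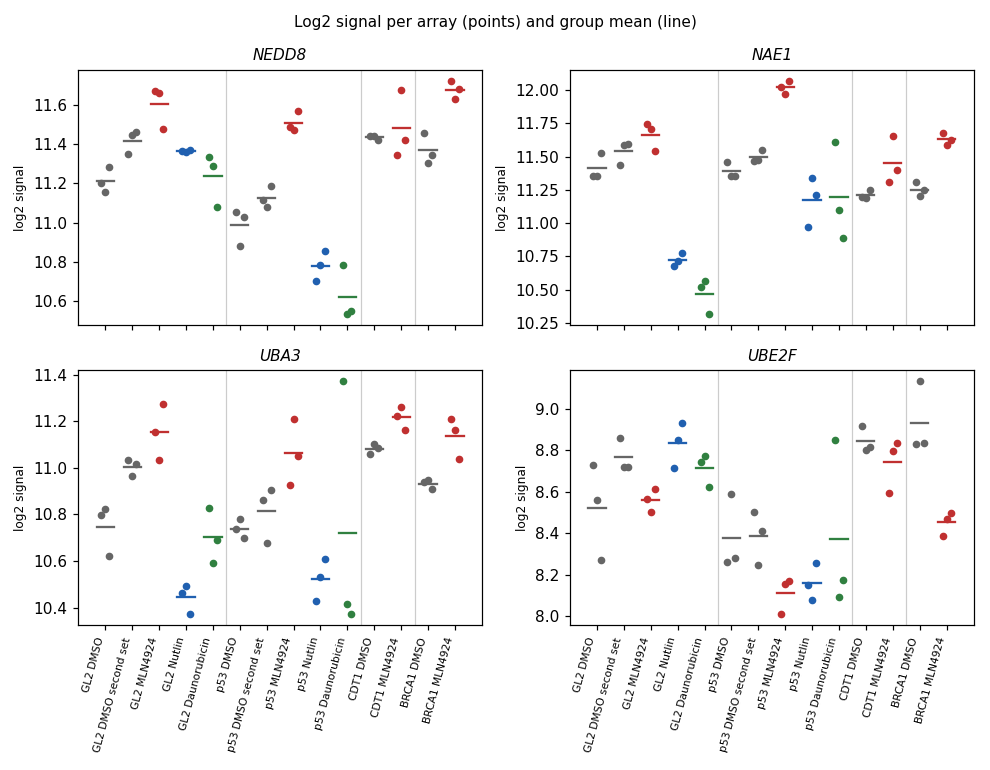
Log2 signal (y axis) of NEDD8, NAE1, UBA3 and UBE2F on each of 42 arrays (points) in 14 groups (x axis), with the group mean as a line and colours for DMSO, MLN4924, Nutlin and daunorubicin. NAE1 sits at 10.32 to 10.78 with Nutlin and daunorubicin in GL2 siRNA cells, below all GL2 DMSO arrays.

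KEAP1, the CUL3 receptor that presents NRF2 for degradation, rose with MLN4924 in GL2 siRNA cells. Its 3 arrays read 9.65, 9.57 and 9.39, against a range of 8.43 to 8.71 and a median of 8.66 on 6 DMSO arrays. The change was 0.93 ± 0.10 (limma adjusted p = 8.83e-09), and 1.0 without the doubted replicate 3. With p53 siRNA, KEAP1 was at 9.97, 9.65 and 9.81 against 8.32 to 8.78, a change of 1.26 ± 0.10 (limma adjusted p = 1.34e-11). In BRCA1 siRNA cells it was at 9.23, 9.37 and 9.36 against 8.43, 8.24 and 8.54, a change of 0.92 ± 0.11 (limma adjusted p = 2.31e-07), and 0.90 without the doubted replicate 3. None of these groups overlapped its controls, and KEAP1 was called under all 3 siRNAs at each of the 3 scalings. CDT1 siRNA gave 8.63, 8.96 and 8.70 against 8.42, 8.49 and 8.54, a difference of 0.28 ± 0.11 (limma adjusted p = 0.0952) that was not called. Whether the KEAP1 change with CDT1 siRNA differs from that with GL2 siRNA was not tested.

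DCUN1D2, a DCN1-like protein that promotes cullin neddylation, had 7.71, 7.58 and 7.07 with MLN4924 in GL2 siRNA cells. DMSO arrays ran from 6.61 to 6.87, and the drug array nearest to them is the doubted replicate 3. The change was 0.73 ± 0.14 (limma adjusted p = 0.00014), and 0.92 without that array. With p53 siRNA, arrays at 8.47, 8.02 and 8.30 faced 6.91 to 7.17 and gave 1.21 ± 0.14 (limma adjusted p = 3.73e-08), a difference from GL2 siRNA that was not called. CDT1 siRNA cells had 7.13, 7.57 and 7.46 against 6.42, 6.34 and 6.69, a change of 0.90 ± 0.16. BRCA1 siRNA cells had 7.34, 7.14 and 7.42 against 6.70, 6.53 and 6.19, a change of 0.83 ± 0.16, and 0.77 without the doubted replicate 3. DCUN1D2 was called in p53, CDT1 and BRCA1 siRNA cells at each scaling, and in GL2 siRNA cells it stayed under the fold limit without centring, at 0.55. Its signal is read by 1 probe set only, as is that of KEAP1.

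The promoters of KEAP1 and DCUN1D2, which rose with MLN4924, and of SKP2 and NAE1, which fell with Nutlin and daunorubicin, are shown to set the letters searched beside these changes. The stretch shown for KEAP1 holds a match and the other three hold none. Each line gives the last 120 bases before the annotated start, from RefSeq on GRCh38.p14, written 5' to 3' along the gene, with capitals for a match.
KEAP1, chr19:10503357-10503476, minus strand: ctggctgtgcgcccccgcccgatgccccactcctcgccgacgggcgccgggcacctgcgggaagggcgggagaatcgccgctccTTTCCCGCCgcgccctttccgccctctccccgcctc
DCUN1D2, chr13:113490712-113490831, minus strand: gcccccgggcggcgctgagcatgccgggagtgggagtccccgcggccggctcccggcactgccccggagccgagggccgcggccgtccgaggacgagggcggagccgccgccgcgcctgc
SKP2, chr5:36151991-36152110, plus strand: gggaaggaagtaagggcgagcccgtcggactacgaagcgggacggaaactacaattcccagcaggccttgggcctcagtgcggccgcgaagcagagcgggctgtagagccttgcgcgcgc
NAE1, chr16:66830977-66831096, minus strand: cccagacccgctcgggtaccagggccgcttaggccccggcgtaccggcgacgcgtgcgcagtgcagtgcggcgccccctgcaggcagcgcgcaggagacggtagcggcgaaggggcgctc
Capitals mark the letters TTTCCCGC and TTCCCGCC, which overlap there and are 2 of 3 spellings of the E2F site that were searched on both strands, the third being TTTGGCGC. In the 250 bases before the start, KEAP1 was the 1 of 34 matched genes with any of them, against 3.98% of 27305 promoters, and 0 of 10 genes that fell with Nutlin had one. The antioxidant response core TGACNNNGC was in 6 of 34 (CAND2, COPS3, COPS8, GPS1, RBX1 and SKP1), or 17.6% against 11.03% of all promoters. A match is a description of letters, and binding was not measured.

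In GL2 siRNA cells, 3 of the 38 genes were called higher with MLN4924 and 0 lower by limma (0 lower also at an unadjusted p under 0.05). Over all genes 10.2% were called higher and 7.06% lower, so the share of these genes was near the background. The third call besides KEAP1 and DCUN1D2 was DCUN1D3, a membrane-bound DCN1-like protein, with 7.50, 7.0 and 7.90 against 6.63 to 6.97 and a change of 0.66 ± 0.16 (limma adjusted p = 0.00134). It rested on the doubted replicate 3 and came to 0.44, not called, without it. Leaving out the doubted libraries gave 5 calls, KEAP1, DCUN1D2, COPS4 at 0.60, GPS1 at 0.61 and SENP8 at 0.61. At any size, 22 genes were higher at an adjusted p under 0.05 and 0 lower, against 18.8% and 10.1% of all genes, 28.9% in either direction. The median change of the 38 genes was 0.34 and that of all genes 0.08.

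In p53 siRNA cells MLN4924 gave 13 calls higher and 0 lower by limma (2 lower at an unadjusted p under 0.05), against 17.8% and 7.6% of all genes, 25.4% in either direction. The median change was 0.50, against 0.20 over all genes. By role, the calls comprised 3 of 8 cullins, 4 of 9 signalosome subunits, 1 of 2 RING subunits, 2 of 5 DCN1-like proteins, 1 of 4 adaptors and 2 of 3 receptors. This count depended on the scaling. Without centring 2 were called higher and 3 lower, against 5.33% and 17.4% of all genes. After quantile normalization 2 were called higher and 0 lower, against 8.12% and 9.87%. KEAP1 and DCUN1D2 were the 2 in both cases, and UBE2F, CUL7 and CUL9 were the 3 called lower. The other 11 calls hold relative to the median gene of each array and not on the deposited scale.

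Among the cullins, the scaffolds of the ligases, CUL4B was at 9.01, 8.91 and 9.08 with MLN4924 and p53 siRNA, against 7.89 to 8.43, a change of 0.82 ± 0.12. CUL4A, which pairs like CUL4B with DDB1, was at 10.75, 10.74 and 10.82 against 9.75 to 10.12, a change of 0.76 ± 0.12. CUL3, the scaffold of the KEAP1 ligase, was at 11.19, 11.08 and 11.30 against 10.38 to 10.57, a change of 0.74 ± 0.11. None of the 3 overlapped its DMSO arrays, and on the deposited scale their changes came to 0.40, 0.34 and 0.32. CUL1, CUL2 and CUL5 lay between 0.38 and 0.52 in the same comparison. CUL7, an atypical cullin, went the other way at -0.40 ± 0.11, and CUL9, which is large and related to CUL7, was at -0.18 ± 0.14.

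The RING subunit RNF7, which works with CUL5, was at 10.56, 10.78 and 10.62 against 9.76 to 10.06, a change of 0.73 ± 0.09. RBX1, the RING subunit of most other cullins, was at 10.52, 10.52 and 10.67 against 9.76 to 10.13 and missed the fold limit at 0.58 ± 0.10. DCUN1D5, another DCN1-like protein, had 12.53, 12.48 and 12.59 against 11.68 to 11.84, a change of 0.77 ± 0.09 that other probe sets of the gene did not share. The mean over all its probe sets was -0.0045.

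Of the COP9 signalosome, the enzyme complex that takes NEDD8 off cullins, 4 of 9 subunits were called in p53 siRNA cells. COPS3 was at 11.19, 11.19 and 11.25 against 10.37 to 10.54, a change of 0.76 ± 0.08, and COPS6, partner of the catalytic subunit, at 11.45, 11.30 and 11.46 against 10.62 to 10.93, a change of 0.64 ± 0.10. COPS2 was at 11.75, 11.71 and 11.84 against 11.02 to 11.23, a change of 0.63 ± 0.09. COPS4 had 10.65, 10.60 and 10.76 against 9.92 to 10.24, a change of 0.59 ± 0.11 at the edge of the limit, and it was lost when any of 4 arrays was left out (0.55 without the third p53 MLN4924 array). These groups did not overlap. COPS5, the catalytic subunit, was at 0.41 ± 0.11, COPS7A at 0.40 ± 0.07, COPS7B at 0.50 ± 0.13, COPS8 at 0.47 ± 0.10 and GPS1 at 0.75 ± 0.33. GPS1 was called, at 0.75 ± 0.13, once the doubted libraries were left out of the fit.

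SKP2, the F-box receptor that presents the cell cycle inhibitor p27 to CUL1 ligases, had 10.49, 10.69 and 10.79 with MLN4924 and p53 siRNA, against 9.46 to 9.87, a change of 0.95 ± 0.17 (limma adjusted p = 2.32e-05). In CDT1 siRNA cells it was at 10.69, 10.82 and 10.66 against 9.99, 10.18 and 10.13, a change of 0.63 ± 0.19 (limma adjusted p = 0.0227). That call was lost without CDT1 DMSO 1 or CDT1 DMSO 3 (0.57 and 0.64) or CDT1 MLN4924 2 (0.58). In GL2 siRNA cells the first and second MLN4924 arrays both read 10.79 and the doubted replicate 3 10.05, against 10.24 to 10.46, for a change of 0.20 ± 0.17, and 0.45 ± 0.12 without it. In BRCA1 siRNA cells the arrays read 9.99, 10.11 and, in the doubted replicate 3, 10.76, for 0.42 ± 0.19, and 0.18 ± 0.13 without it. On the deposited scale the change in p53 siRNA cells was 0.54, just short of the limit. The 2 other probe sets of SKP2 gave 1.41 and 1.62 in that comparison.

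The difference between the p53 and GL2 siRNA changes with MLN4924 was called for 1 of 38 genes, SKP2, at 0.75 ± 0.24 (limma adjusted p = 0.0317). Over all genes 6.96% were called higher and 3.41% lower in this test. SKP2 started lower with p53 siRNA, at 9.46 to 9.87 on the DMSO arrays against 10.24 to 10.46 with GL2 siRNA. Its levels with MLN4924, given above, overlapped between the 2 siRNAs. The difference is therefore one of changes and not of a higher level with the drug. The call rested on single libraries. It came to 0.50 (limma adjusted p = 0.198) without the third GL2 MLN4924 array, 0.71 (0.0541) without the second array of the second p53 DMSO set, 0.73 (0.0647) without p53 MLN4924 2 and 0.68 (0.0949) without p53 MLN4924 3. The number of calls was 2 without the first GL2 MLN4924 array, 3 without the second, and 2 without the first p53 MLN4924 array.

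DDB1, the adaptor of CUL4 ligases, was called higher with MLN4924 in 3 siRNAs. In CDT1 siRNA cells it was at 10.51, 10.11 and 10.38 against 9.67, 9.42 and 9.63, a change of 0.76 ± 0.14 (limma adjusted p = 0.000183) that was called at each scaling. In BRCA1 siRNA cells it was at 10.39, 10.51 and 10.59 against 9.91, 9.37 and 9.90, a change of 0.77 ± 0.14, and in p53 siRNA cells at 10.72, 10.42 and 10.62 against 9.52 to 10.20, a change of 0.71 ± 0.12. The BRCA1 siRNA change was 0.72 without the doubted array, and 0.55 and not called after quantile normalization. The p53 siRNA change was 0.29 without centring and 0.20 after quantile normalization, not called in either. GL2 siRNA gave 0.44 ± 0.12, under the fold limit. The other adaptors, SKP1 of CUL1 ligases and ELOB and ELOC of CUL2 and CUL5 ligases, lay between 0.10 and 0.54 with MLN4924 in the 4 siRNAs and were not called. The other probe set of ELOB gave larger values, of 1.47, 1.71, 1.25 and 1.62 in GL2, p53, CDT1 and BRCA1 siRNA cells, and those of SKP1 reached 1.09.

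CDT1 siRNA cells had 3 genes called higher and 0 lower with MLN4924 by limma (1 lower at an unadjusted p under 0.05), DCUN1D2, DDB1 and SKP2, against 5.93% and 4.63% of all genes. BRCA1 siRNA cells had 4 higher and 0 lower (1 lower at an unadjusted p under 0.05), against 9.79% and 7.15%. They were KEAP1, DCUN1D2, DDB1 and COPS4. COPS4 had 10.49, 10.56 and 10.55 against 9.68, 9.56 and 9.64, a change of 0.90 ± 0.13 that its other, dimmer probe set did not share. CUL7 passed the adjusted threshold below 0 in CDT1 siRNA cells, at -0.48 ± 0.13 (limma adjusted p = 0.00834).

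**Figure D3:**
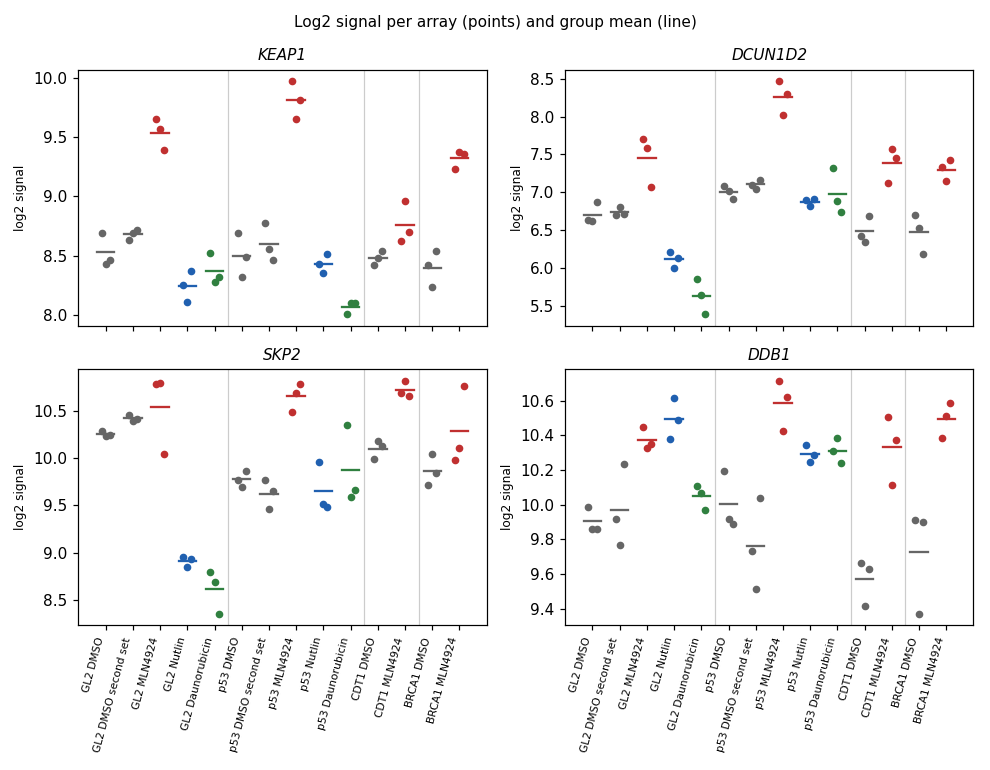
Log2 signal (y axis) of KEAP1, DCUN1D2, SKP2 and DDB1 on each of 42 arrays (points) in 14 groups (x axis), with the group mean as a line. KEAP1 arrays with MLN4924 sit between 9.23 and 9.97 in GL2, p53 and BRCA1 siRNA cells and SKP2 arrays with Nutlin or daunorubicin between 8.35 and 8.95 in GL2 siRNA cells.

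In GL2 siRNA cells Nutlin gave 3 calls higher and 10 lower, against 6.71% and 9.67% of all genes and 16.4% in either direction, with a median change of -0.17 against 0.01 over all genes. SKP2 fell most, from 10.29, 10.24 and 10.24 with DMSO to 8.95, 8.85 and 8.93, a change of -1.34 ± 0.19 (limma adjusted p = 2.3e-06). Its other probe sets gave -2.09 and -1.78. Daunorubicin took SKP2 to 8.80, 8.69 and 8.35, a change of -1.64 ± 0.19 (limma adjusted p = 7.02e-08). Both drugs share the same DMSO arrays, so that their values stand side by side here and are not independent. For daunorubicin 1 of the 38 genes was called higher and 8 lower, against 6.49% and 9.93% of all genes and 16.4% in either direction, with medians of -0.23 and -0.01.

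NAE1 was at 10.68, 10.72 and 10.78 with Nutlin and at 10.52, 10.56 and 10.32 with daunorubicin, against 11.36, 11.36 and 11.53 with DMSO. Neither drug group overlapped the DMSO arrays, with changes of -0.69 ± 0.12 (limma adjusted p = 4.71e-05) and -0.95 ± 0.12 (limma adjusted p = 3.14e-07). The Nutlin change was -0.57 and not called without centring or after quantile normalization, whereas that with daunorubicin was called at -0.78 and -0.75. The partner subunit UBA3 was at -0.30 ± 0.15 and -0.04 ± 0.15, and NEDD8 at 0.15 ± 0.09 and 0.02 ± 0.09. UBE2F was at 0.31 ± 0.14 and 0.19 ± 0.14. None of these 3 was called with either drug.

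DCUN1D4, of the DCN1-like family, had 7.42, 7.56 and 7.57 with Nutlin and 7.56, 7.66 and 7.54 with daunorubicin, against 8.58, 8.67 and 8.36. Its changes of -1.02 ± 0.12 and -0.95 ± 0.12 were called at each scaling. DCUN1D2 was at 6.21, 6.0 and 6.13 with Nutlin, a change of -0.59 ± 0.16 lost without the third GL2 DMSO array (-0.51) or the second Nutlin array (-0.54). Daunorubicin took DCUN1D2 to 5.85, 5.64 and 5.38 from 6.63, 6.61 and 6.87, a change of -1.08 ± 0.16 (limma adjusted p = 5.33e-06). DCUN1D3 went the other way, with 7.61, 7.25 and 7.66 with Nutlin and 7.74, 7.89 and 7.75 with daunorubicin against 6.63, 6.94 and 6.97. Its changes were 0.66 ± 0.18, lost at 0.55 without the first GL2 DMSO array, and 0.95 ± 0.18. DCUN1D1 and DCUN1D5 were not called with either drug.

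CUL3 was at 9.69, 9.61 and 9.62 with Nutlin and 9.66, 9.67 and 9.53 with daunorubicin against 10.37, 10.40 and 10.42, changes of -0.76 ± 0.13 and -0.78 ± 0.13. CUL1 was at 8.37, 8.34 and 8.22 with Nutlin and 8.31, 8.41 and 8.16 with daunorubicin against 8.89, 9.06 and 9.05, changes of -0.69 ± 0.10 and -0.71 ± 0.10. The other probe set of CUL1 moved less, by -0.05 with Nutlin and -0.20 with daunorubicin. CUL4B was called with Nutlin alone, at 8.21, 8.14 and 8.38 against 9.12, 8.79 and 8.57, a change of -0.59 ± 0.13. That call was lost without the first GL2 DMSO array (-0.44) or the first or second Nutlin array (-0.57 and -0.53). CUL7 rose with Nutlin, from 7.32, 7.30 and 7.44 to 7.91, 7.98 and 8.11, by 0.65 ± 0.13, and had 7.99, 7.94 and 7.69 with daunorubicin, a difference of 0.52 ± 0.13 under the fold limit. On the deposited scale both CUL7 values passed it, at 0.77 and 0.69, though 2 of its 3 other probe sets had the opposite sign with Nutlin. CUL9 was at 0.48 ± 0.16 and 0.58 ± 0.16, under the fold limit, and was called without centring at 0.61 and 0.75.

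CAND1, which strips un-neddylated cullins of their receptors, was at 9.0, 9.14 and 9.19 with Nutlin and 9.38, 9.27 and 9.16 with daunorubicin against 9.99, 10.01 and 9.95, changes of -0.87 ± 0.15 and -0.71 ± 0.15. CAND2, its muscle-enriched relative, was at 5.30, 5.49 and 5.44 with Nutlin against 6.19, 6.02 and 5.97, a change of -0.65 ± 0.15 that its other, dim probe set contradicted at 1.54. COPS3 was at 9.49, 9.47 and 9.5 with Nutlin and 9.64, 9.53 and 9.42 with daunorubicin against 10.27, 10.20 and 10.29, changes of -0.76 ± 0.10 and -0.72 ± 0.10. The other 8 signalosome genes were not called with either drug in GL2 siRNA cells. DDB1 rose with Nutlin to 10.38, 10.62 and 10.49 from 9.99, 9.86 and 9.86, by 0.59 ± 0.14, lost without GL2 DMSO 2 or GL2 DMSO 3 (0.57 for each) or the second Nutlin array (0.53). With daunorubicin DDB1 was at 0.14 ± 0.14.

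At all 3 scalings, the genes called lower with Nutlin were CAND1, COPS3, CUL3, DCUN1D4 and SKP2, and those called lower with daunorubicin DCUN1D2, DCUN1D4, NAE1 and SKP2. CUL7, DCUN1D3 and DDB1 were called higher with Nutlin at all 3, and DCUN1D3 with daunorubicin. The plot of medians by scaling shows how far the centre of the 38 genes moves with the choice. With MLN4924 in p53 siRNA cells it was 0.50 with centring, 0.08 without it and 0.08 after quantile normalization, where the medians of all genes were 0.20, -0.22 and 0.04. The excess over all genes was thus smallest after quantile normalization. For Nutlin in GL2 siRNA cells the 3 medians were -0.17, -0.05 and -0.05.

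**Figure D4:**
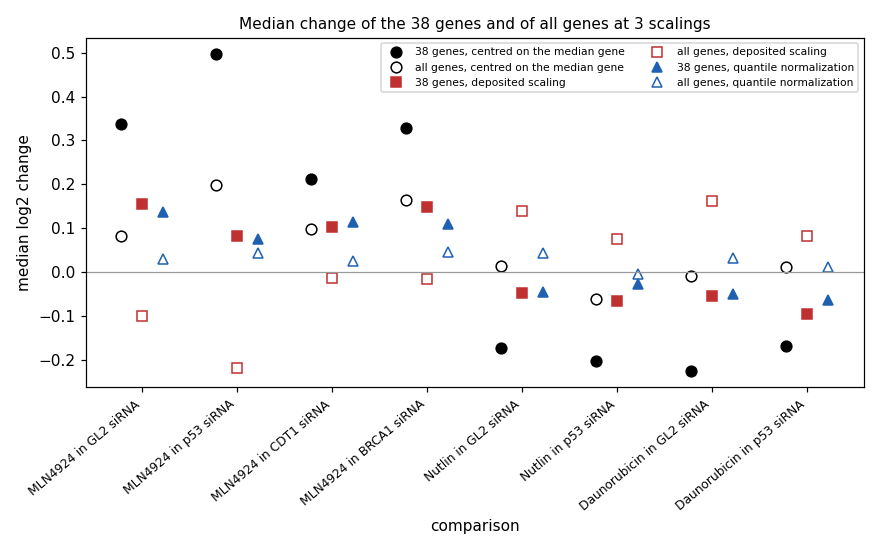
Median log2 change (y axis) of the 38 genes (filled symbols) and of all 19775 genes (open symbols) in 8 drug comparisons (x axis) at 3 scalings (circles, squares and triangles). For MLN4924 in p53 siRNA cells the filled symbols fall from 0.50 to 0.08, whereas the order of filled above open symbols is kept in all 4 MLN4924 comparisons.

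The MLN4924 change in GL2 siRNA cells was taken against both DMSO sets, and the Nutlin and daunorubicin changes against the first set. Differences between these sets therefore enter the comparisons of the drugs. The MLN4924 less Nutlin difference was called higher for 18 of 38 genes and lower for 1, against 17.0% and 8.69% of all genes. For MLN4924 less daunorubicin, 17 genes were higher and 1 lower, against 18.2% and 9.03%. Without the doubted libraries 19 genes were higher and 1 lower in each comparison. The shares of all genes were then 18.7% and 9.69% against Nutlin and 20.1% and 10.1% against daunorubicin. SKP2 differed by 1.55 ± 0.21 (limma adjusted p = 1.04e-06) from its Nutlin change and by 1.85 ± 0.21 (limma adjusted p = 4.68e-08) from its daunorubicin change. KEAP1 differed by 1.22 ± 0.13 and 1.08 ± 0.13, DCUN1D2 by 1.33 ± 0.18 and 1.81 ± 0.18, and NAE1 by 0.88 ± 0.13 and 1.13 ± 0.13. CUL7 was the 1 lower gene in both, at -0.73 ± 0.14 and -0.60 ± 0.14. At all 3 scalings the higher calls numbered 10 against Nutlin and 7 against daunorubicin, with SKP2, KEAP1, DCUN1D2, DCUN1D4, CUL1 and CUL3 in both. Doses were 650 nM, 5 uM and 100 nM, so that these comparisons are of the treatments as given and not of matched doses.

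Nutlin in p53 siRNA cells called 0 of the 38 genes by limma, against 0.0405% of all genes higher and 0.0152% lower, 0.0556% in either direction. At an unadjusted p under 0.05, 1 gene was higher and 12 were lower. SKP2 was at 9.96, 9.51 and 9.48 against 9.77, 9.70 and 9.87, overlapping its controls at -0.13 ± 0.19, with NAE1 at -0.22 ± 0.12 and DCUN1D4 at -0.04 ± 0.12. The difference from the GL2 siRNA change was called for 6 genes, against 5.3% of all genes higher and 4.72% lower. It was positive for SKP2 (1.22 ± 0.27, limma adjusted p = 0.00224), DCUN1D4 (0.98 ± 0.18), CAND2 (0.93 ± 0.21) and CAND1 (0.74 ± 0.22), and negative for ELOB (-0.60 ± 0.16) and RNF7 (-0.59 ± 0.15). CAND1 lost its call at 0.70 without the third p53 DMSO array, 0.68 without the first GL2 Nutlin array and 0.71 without the third p53 Nutlin array. ELOB lost its call when any of 7 arrays was left out, with values as near 0 as -0.52, and RNF7 when any of 5 was, as near as -0.43.

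VHL, the CUL2 receptor for hypoxia-inducible factors, and GPS1, a signalosome subunit, were the 2 genes called lower with daunorubicin in p53 siRNA cells, against 6.35% of all genes lower and 5.67% higher. VHL had 4.05, 6.15 and 7.39 against 7.79, 7.76 and 7.75, a change of -1.90 ± 0.41 (limma adjusted p = 0.00117). GPS1 had 5.48, 8.02 and 8.76 against 8.99, 8.94 and 8.82, a change of -1.5 ± 0.38 (limma adjusted p = 0.00573). The lowest value of each was on the doubted first array, whose low 5' to 3' ratio is given above. Without that array GPS1 was at -0.53 and not called, and VHL at -1.0 ± 0.28. With the doubted libraries left out, CUL1 was called lower at -0.63 as well.

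The siRNA against p53 itself lowered 4 of the 38 genes under DMSO and raised 0 by limma (5 higher at an unadjusted p under 0.05), against 2.27% of all genes lower and 1.71% higher. COPS8, a signalosome subunit, ran from 9.10 to 9.39 on 6 p53 siRNA arrays, against 10.17, 10.20 and 10.17 in the first and 10.40, 10.33 and 10.30 in the second GL2 DMSO set, a change of -0.95 ± 0.09 (limma adjusted p = 2.13e-09). RBX1 ran from 9.76 to 10.13 against 10.60, 10.66, 10.80 and 10.94, 10.69, 10.83, a change of -0.77 ± 0.08 (limma adjusted p = 6.7e-08). CUL4B ran from 7.89 to 8.43 against 9.12, 8.79, 8.57 and 8.90, 8.79, 8.84, a change of -0.65 ± 0.09. SKP2 ran from 9.46 to 9.87 against 10.24 to 10.46, a change of -0.64 ± 0.14. No p53 siRNA array overlapped the GL2 arrays in these 4 genes. CUL4B was lost at -0.58 without the first GL2 DMSO array or the second array of the second p53 DMSO set. After quantile normalization SKP2 was at -0.58 and not called. With the mean of all probe sets RBX1 and SKP2 were called, and COPS8 and CUL4B, both at -0.56, were not.

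The arrays with drugs entered this test only through the shared spread of the fit. They kept the ordering of p53 below GL2 siRNA for RBX1 and, but for 1 array, for COPS8. They did not keep it for SKP2 or throughout for CUL4B. COPS8 was at 9.67, 9.79 and 9.87 with p53 siRNA and MLN4924, against 10.66, 10.53 and 10.62 with GL2 siRNA and MLN4924. With Nutlin it was at 9.09, 9.17 and 9.14 against 9.74, 9.68 and 9.93. RBX1 was at 9.46, 9.75 and 9.83 with p53 siRNA and Nutlin, against 10.12, 10.07 and 10.29. With daunorubicin the doubted p53 siRNA array held 9.99 for COPS8, above the 3 GL2 siRNA arrays at 9.97, 9.94 and 9.82, whereas the other two were at 9.21 and 9.28. SKP2 with Nutlin was higher with p53 siRNA, at 9.96, 9.51 and 9.48 against 8.95, 8.85 and 8.93. CUL4B with Nutlin overlapped, at 7.86, 8.14 and 7.72 with p53 siRNA against 8.21, 8.14 and 8.38. A second siRNA against p53 was not analysed here, so sequence-specific effects of this siRNA and effects of less p53 cannot be told apart.

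**Figure D5:**
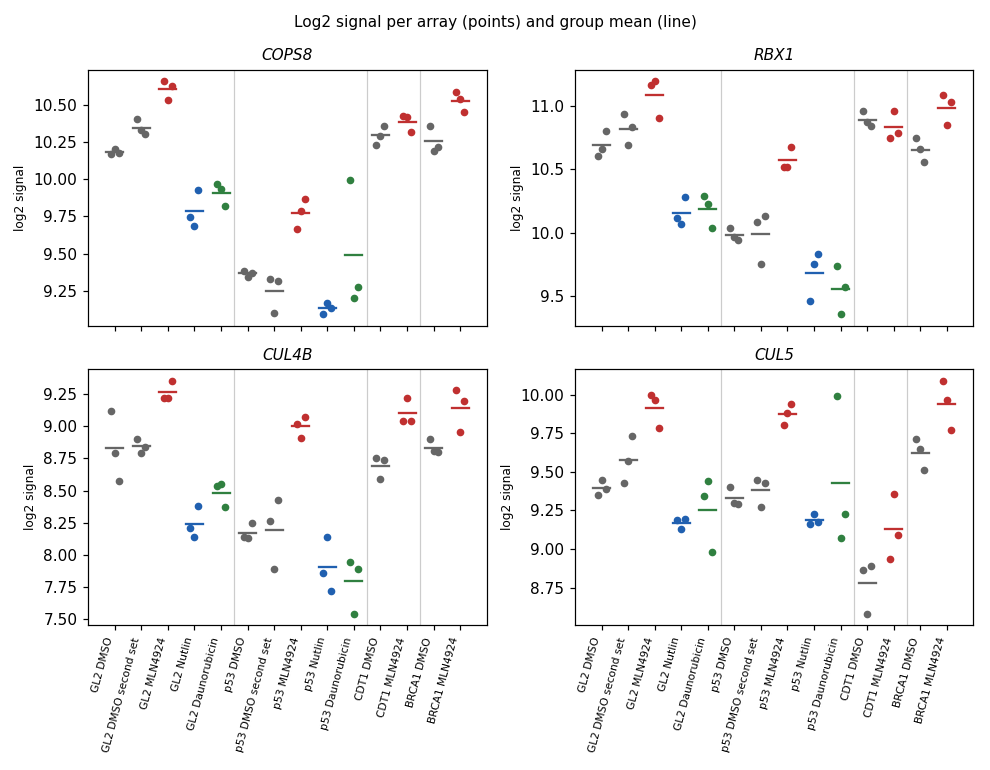
Log2 signal (y axis) of COPS8, RBX1, CUL4B and CUL5 on each of 42 arrays (points) in 14 groups (x axis), with the group mean as a line. COPS8 and RBX1 lie lower in p53 siRNA groups than in the matching GL2 siRNA groups except for 1 daunorubicin array of COPS8, and CUL5 is at 8.58 to 8.89 with CDT1 siRNA and DMSO.

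CDT1 siRNA under DMSO called 1 gene lower and 0 higher by limma (1 higher at an unadjusted p under 0.05), against 3.58% and 2.72% of all genes, 6.3% in either direction. CUL5, the scaffold of SOCS-box ligases, was at 8.86, 8.58 and 8.89 against 9.35, 9.45, 9.39 and 9.43, 9.57, 9.73, a change of -0.71 ± 0.13 (limma adjusted p = 0.000424). Its 3 other probe sets ranged from -0.88 to 0.50, with 2 of opposite sign. BRCA1 siRNA under DMSO called 1 gene higher and 0 lower by limma (9 lower at an unadjusted p under 0.05), against 4.11% and 4.37% of all genes, 8.48% in either direction. DCUN1D3 was at 7.64, 7.44 and 7.50 against 6.63, 6.94, 6.97 and 6.91, 6.66, 6.71, a change of 0.72 ± 0.16 (limma adjusted p = 0.00151).

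Beyond the core, the substrate receptors and neighbours of the pathway were read in 7 lists. Of 42 measured F-box receptors of CUL1 ligases, 6 rose and 4 fell with MLN4924 in GL2 siRNA cells, against 10.2% and 7.06% of all genes, with a list median of 0.28 against 0.08 over all genes. FBXW7, the receptor for cyclin E and MYC, rose by 1.35 ± 0.15, and FBXO5, an inhibitor of the anaphase-promoting complex, changed by -1.59 ± 0.23. With p53 siRNA 7 of the list were higher and 3 lower, against 17.8% and 7.6% of all genes. Without centring the counts were 2 and 10, against 5.33% and 17.4% of all genes. Nutlin in GL2 siRNA cells gave 6 higher and 5 lower, against 6.71% and 9.67% of all genes, with FBXO5 at -3.67 ± 0.27 and CCNF at -3.92 ± 0.42.

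For the other lists too, the shares of all genes called higher and lower with MLN4924 were 10.2% and 7.06% in GL2 siRNA cells and 17.8% and 7.6% in p53 siRNA cells. Without centring these shares were 5.69% and 10.9% in GL2 siRNA cells and 5.33% and 17.4% in p53 siRNA cells. Of 40 BTB receptors of CUL3 ligases, 11 rose and 2 fell with MLN4924 in GL2 siRNA cells and 15 rose and 1 fell in p53 siRNA cells, where the counts were 4 and 4 without centring. KLHL18 rose by 1.03 ± 0.10 and 1.10 ± 0.10, and ENC1, an actin-associated BTB protein, changed by -1.03 ± 0.11 and -1.78 ± 0.11. With Nutlin and daunorubicin in GL2 siRNA cells ENC1 rose, by 0.72 ± 0.13 and 1.24 ± 0.13. Of 27 DCAF receptors of CUL4 ligases 5 rose and 0 fell with MLN4924 in GL2 siRNA cells, led by DDB2, the DNA damage receptor and a p53 target, at 1.79 ± 0.13 and DCAF4 at 1.01 ± 0.11. With p53 siRNA 7 rose (4 without centring, with 4 lower) and 1 fell, DDB2 at -0.81 ± 0.13, named after its value was seen, while DCAF4 rose by 1.02 ± 0.11. DDB2 was the 1 gene of the 7 lists called with Nutlin in p53 siRNA cells, at 0.83 ± 0.15.

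Of 36 SOCS-box and elongin receptors 9 rose and 2 fell with MLN4924 in GL2 siRNA cells (10.2% and 7.06% of all genes), and 12 and 4 in p53 siRNA cells (17.8% and 7.6%). Without centring the p53 siRNA counts were 3 and 9 (5.33% and 17.4% of all genes). Of 12 measured regulators and conjugating enzymes of the ligases, 1 rose in GL2 siRNA cells, UCHL3 at 0.72 ± 0.12, and 9 in p53 siRNA cells (1 without centring), with ARIH2, the ligase partner of neddylated CUL5, at 1.53 ± 0.17. ARIH2 fell with Nutlin and daunorubicin in GL2 siRNA cells, at -0.95 ± 0.19 and -0.84 ± 0.19. Of 18 measured enzymes of other ubiquitin-like proteins 2 rose and 2 fell in GL2 siRNA cells, 4 and 2 in p53 siRNA cells, the GL2 siRNA counts being 0 and 4 without centring. Of 27 proteasome subunits 1 rose with MLN4924 in GL2 siRNA cells, PSMD2 at 0.73 ± 0.09, and 9 in p53 siRNA cells, where PSMD2 was at 0.83 ± 0.09. The median changes of the proteasome list were 0.26 and 0.54, and those of the 38 core genes 0.34 and 0.50. Without centring or after quantile normalization 0 subunits were called in either, and without the doubted libraries 3 and 11. The counts in GL2 siRNA cells also moved without centring, to 3 higher and 5 lower F-box, 5 and 3 BTB, 3 and 3 DCAF and 4 and 4 SOCS-box receptors. Over all genes 5.69% were then called higher and 10.9% lower.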

How the data were processed

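The deposited table gives a linear signal intensity for 54675 probe sets on each of 42 arrays, and the submitters' processing notes name Affymetrix Expression Console, without a version, as the authors' tool. The 2% trimmed mean was near 150.0 on every array. The table gives no detection calls or scan dates, so background and scan batch were not tested.

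Of the probe sets, 41091 carried 1 symbol in GEO's platform annotation, 1801 several (left out) and 11721 none, and 62 were controls. For the fit, 147 zeros were raised to 0.1, log2 was taken, each of 19775 genes was read by its brightest probe set on average, and every array was shifted to a common median gene (medians before it 5.63 to 6.35). Limma 3.58.1 in R 4.3.3 fitted all 14 groups at once (28 residual degrees of freedom, 15 contrasts), with Benjamini-Hochberg adjustment over all genes of a contrast. MLN4924 in GL2 or p53 siRNA cells and the siRNA contrasts used both DMSO sets as control, Nutlin and daunorubicin the first set, and CDT1 or BRCA1 siRNA cells their own DMSO arrays. The labels do not state these controls. 12 genes that differ between the sets placed the Nutlin and daunorubicin arrays between -0.51 and 0.37 on a scale with the first set at 0 and the second at 1, the GL2 and p53 siRNA MLN4924 arrays between 0.39 and 0.79, and the CDT1 and BRCA1 siRNA MLN4924 arrays between 0.22 and 0.72. The DMSO arrays lay between 0.66 and 0.73 with CDT1 siRNA and between 1.05 and 1.15 with BRCA1 siRNA. Differences of this kind may therefore also enter the CDT1 and BRCA1 siRNA contrasts, which was not tested.

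All 39 genes of the list may be named, with every array's value for those called with a drug and for the targets. From the 7 pathway lists at most 4 called genes per contrast by moderated statistic could be named, and fewer are printed. The members and lists were chosen with earlier results of these data known. On simulated data made for MLN4924 in GL2 siRNA cells, the fit recovered 22.4% of 67 genes changed 1.5-fold, 55.2% of 67 changed 2-fold and 71.2% of 66 changed 4-fold, with 2 of 19575 unchanged genes called. With so few changed genes the adjusted threshold was stricter than in the data, where 28.9% of all genes passed it. A 1.5-fold change also lies at the fold limit itself, so its estimate can fall short. These shares therefore need not hold for the data. Promoters came from RefSeq (GRCh38.p14), 34 of 38 genes matching. The number of arrays limits the precision. Alternatives were the scaling, probe set and control choices, thresholds, a pseudocount of 16, fit options and leaving out arrays. Python 3.11.15, pandas 2.3.3 and matplotlib 3.10.9 made the tables and plots.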

Additional observations from a re-analysis of the deposited data

Results flagged for a closer look

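The difference between the p53 and GL2 siRNA changes passed the test for 7 gene and drug combinations. With MLN4924 it was 0.75 for SKP2, and with Nutlin 1.22 for SKP2, 0.98 for DCUN1D4, 0.93 for CAND2, 0.74 for CAND1, -0.60 for ELOB and -0.59 for RNF7, all on the log2 scale by limma's interaction contrast. SKP2, DCUN1D4, CAND1 and CAND2 fell with Nutlin in GL2 siRNA cells, and ELOB and RNF7 stood at 0.51 and 0.22 there without passing the fold limit. SKP2, CAND1, CAND2 and DCUN1D4 were called in this Nutlin test at all 3 scalings, ELOB and RNF7 were not, and the SKP2 call with MLN4924 was lost at the other scalings. With the mean of all probe sets, SKP2 was the 1 of these 4 that was still called. The cause was not tested.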

How the results depend on the processing

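Of 97 called gene and comparison pairs, 79 kept their call whichever array was left out and 20 under every other alternative. These alternatives include the stricter 2-fold threshold, which by itself kept 23. The replicate number as a block kept all 97, as did limma's trend and robust options and leaving out dim genes, and the member counts with the block were as without it (3, 13, 3 and 4 for MLN4924 in GL2, p53, CDT1 and BRCA1 siRNA cells). Same-numbered samples shared only a number, with a median correlation of their deviations of -0.0015. Without centring 55 pairs kept their call, after quantile normalization 57, and with the mean of all probe sets 64, with 6 reversed. These were DCUN1D5 (-0.0045) with MLN4924 and p53 siRNA, COPS4 (-0.33) with MLN4924 and BRCA1 siRNA, CAND2 (0.45) with Nutlin, and CAND2 (-0.36), CUL5 (-0.10) and DCUN1D5 (-0.12) for MLN4924 less Nutlin. The cause of these changes was not tested.

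Counts of called genes moved as follows. With no fold threshold they were 22, 29, 7 and 18 for MLN4924 in GL2, p53, CDT1 and BRCA1 siRNA cells, 22 for Nutlin and 15 for daunorubicin in GL2 siRNA cells, 8 for daunorubicin in p53 siRNA cells, 4 for CDT1 and 4 for BRCA1 siRNA under DMSO, 4 for the p53 less GL2 difference with MLN4924 and 10 for that with Nutlin. In the same order, the shares of all genes were 28.9%, 37.8%, 15.9% and 25.4%, 22.9% and 23.1%, 17.9%, 12.1% and 14.8%, and 12.7% and 10.8%. At 2-fold the counts of called genes were 0, 2, 0 and 0 for MLN4924, 2 for Nutlin and 2 for daunorubicin in GL2 siRNA cells, 0 for each siRNA under DMSO, 0 and 1 for the p53 less GL2 differences, 8 for MLN4924 less Nutlin and 6 for MLN4924 less daunorubicin. The first DMSO set as control gave 6 for MLN4924 in GL2 siRNA cells, and the second set 1 for Nutlin with p53 siRNA, with 3 for the MLN4924 difference. Without centring there were 1 for MLN4924 in GL2 and 5 in p53 siRNA cells, 3 for the MLN4924 difference and 10 for MLN4924 less daunorubicin, and after quantile normalization 2 in p53 siRNA cells, 0 and 9 for the same. Of all genes, the shares higher and lower without centring were 5.69% and 10.9%, 5.33% and 17.4%, 3.3% and 7.19%, and 8.82% and 17.3%. After quantile normalization they were 8.12% and 9.87%, 3.61% and 4.48%, and 11.8% and 11.4%. The mean of all probe sets gave 5 for MLN4924 in GL2 and 5 in CDT1 siRNA cells, 2 for p53 siRNA and 0 for CDT1 siRNA under DMSO, 0 for the MLN4924 difference and 2 for the Nutlin difference. Of all genes, the shares higher and lower were 9.78% and 6.41%, 4.2% and 4.21%, 1.26% and 1.89%, 2.38% and 2.4%, 4.9% and 2.78%, and 4.33% and 3.45%. Without the doubted libraries there were 5 for MLN4924 in GL2 siRNA cells, 1 for Nutlin with p53 siRNA (VHL at -1.06) and 0 for the MLN4924 difference. Of all genes, 11.3% and 7.66%, 0.121% and 0.319%, and 6.62% and 3.57% were then called higher and lower. Array weights gave 1 for Nutlin in p53 siRNA cells, and a fit of only the groups compared 0 for daunorubicin in p53 siRNA cells. For 2-fold, the other DMSO controls, array weights and this last fit, the shares of all genes are not given here. Those counts are therefore not set against a background.

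Leaving out 1 array at a time, the counts ranged from 3 to 4, 12 to 16, 2 to 4 and 4 to 4 for MLN4924 in the 4 siRNAs, 10 to 14 and 0 to 0 for Nutlin and 9 to 10 and 2 to 2 for daunorubicin in GL2 and p53 siRNA cells. They ranged from 3 to 4 for p53 siRNA and 1 to 1 for CDT1 and for BRCA1 siRNA under DMSO, 0 to 3 for the MLN4924 difference, 18 to 20 for MLN4924 less Nutlin, 15 to 19 for MLN4924 less daunorubicin, and 4 to 6 for the Nutlin difference. The shares of all genes in these fits are not given here.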

Other observations

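In the 2 sets of GL2 DMSO arrays, RNF7 was the 1 gene of the 38 that differed at an adjusted p under 0.05 by limma, with the second set higher by 0.47 ± 0.10 (limma adjusted p = 0.0148). SKP2 in the libraries labelled GL2 MLN4924 3 and BRCA1 MLN4924 3 stood at 10.05 and 10.76, where the other arrays of the groups stood at 10.79 and 10.79 and at 9.99 and 10.11. The 2 closest arrays of the series were p53 DMSO 2 and p53 DMSO 3, with a median absolute log2 difference of 0.170 over genes, so that no pair of libraries held the same values.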
